A study of Mus musculus with 9 samples.

Results

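Integrins are cell surface receptors made of one alpha and one beta chain that hold cells to the extracellular matrix and pass force and signals across the membrane. Laminins are heterotrimers of one alpha, one beta and one gamma chain that polymerise into the basement membrane around each cardiomyocyte and each capillary. In the heart the laminin receptor of the cardiomyocyte is chiefly alpha 7 beta 1 integrin, beside dystroglycan, and loss of the laminin alpha 2 chain causes muscular dystrophy. The expression of these chains was examined in bulk RNA-seq of the mouse left ventricle. Members were taken by gene symbol, as every numbered integrin alpha, integrin beta, laminin alpha, laminin beta and laminin gamma gene, which gave 31 of the 52636 genes in the count table. They comprised 12 integrin alpha, 8 integrin beta, 5 laminin alpha, 3 laminin beta and 3 laminin gamma genes, all annotated as protein coding. The alpha V and leukocyte alpha integrins, whose symbols end in a letter, fell outside the symbol rule and are described separately.

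The study compared left ventricle from mice with and without a deletion of *Vdac2*, the gene of a voltage-dependent anion channel of the outer mitochondrial membrane. According to the labels all mice were of the C57BL6J strain and 16 weeks old, and the 9 libraries carried the label WT in 5 cases, numbered 1 to 5, and the label KO in 4, numbered 6 to 9. The KO mice carried floxed *Vdac2* and a cardiomyocyte Cre driven by the alpha myosin heavy chain promoter, and the WT mice were littermates with either the floxed allele or the Cre alone. Because that promoter is active in cardiomyocytes, other cells of the ventricle keep the gene, and the RNA came from whole tissue. Whether each library came from a separate animal is not given in the labels, so p-values measure only the spread between these libraries.

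*Vdac2* (ENSMUSG00000021771, chr14:21825238-21845879 in GRCm38) was read first as a check of the labels, and it went against them. Levels are in CPM, counts per 1e6 of the library size after TMM normalization. Libraries 1 to 5 held 20.2, 366, 58.5, 365 and 21.3 CPM, while libraries 6 to 9 held 384, 20.5, 421 and 19.1 CPM. High and low levels therefore occurred under both labels, and the difference in mean log2 level of 0.15 was not distinguishable from 0 (exact two-sided permutation test, p = 0.80, n = 5 and 4, where the smallest p the design allows is 0.0159). A comparison had been proposed between libraries selected on their *Vdac2* level, below 100 CPM against above 300 CPM, with library 3 set apart. The highest level under the lower bound was 58.5 CPM in library 3, and the lowest above the upper bound was 365 CPM in library 4. Libraries grouped by a measured value are not groups of the study. For this reason no mean, count or test was computed over that division, and groups were taken from the labels alone. Values listed in library order can be read beside the *Vdac2* level of each library. Other members are given as ranges. For *Itgb6*, *Lama5* and *Nppa* the ranges on either side of the division are described, chosen after their values were seen.

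Total counts ranged from 27345052 to 32469135 in the libraries labelled WT and from 36477141 to 44673988 in those labelled KO, so that 3 counts, taken as the floor of detection, amounted to 0.0693 to 0.114 CPM. Such intervals and floors cover counting error only. For library 3 the TMM-normalised size used for scaling was 37078600, above its 28489906 counts. All libraries labelled WT were sequenced in one lane and all labelled KO in another, and the sexes followed the labels as well. *Xist*, transcribed from the inactive X chromosome, was at least 335 CPM in each library labelled KO and at most 0.152 CPM in each labelled WT. Label, lane and sex cannot be told apart. No pair of libraries agreed within sampling noise (chi-square per degree of freedom of at least 7.35). Cardiomyocyte markers had the largest summed level of the cell type lists in every library, as the left ventricle label gives, but the sum in library 3 was 13750 CPM against 49565 to 68214 CPM in the other 8. All 7 cardiomyocyte markers were lowest in library 3 and all 7 macrophage markers were highest there. One WT sample was removed by the study for poor RNA quality without being named, and which library it was is not known here. Fold changes between the labels are therefore given with and without library 3.

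Promoter sequences are shown for 3 members with differing patterns across the libraries, *Itga5* (highest by far in library 3), *Itgb6* and *Lama5* (both with high and low values under each label). Each is the 250 bases before the RefSeq transcription start in GRCm38.p6, on the minus strand, at chr15:103366792-103367041 for *Itga5*, chr2:60722604-60722853 for *Itgb6* and chr2:180225860-180226109 for *Lama5*. The motifs searched, on both strands, were TGANTCA (AP-1, the Fos and Jun dimer), CATTCC (TEAD, the partner of YAP) and GGGCGG (the GC box bound by Sp1). Capitals mark the GC boxes, which read CCGCCC on the other strand.
Itga5: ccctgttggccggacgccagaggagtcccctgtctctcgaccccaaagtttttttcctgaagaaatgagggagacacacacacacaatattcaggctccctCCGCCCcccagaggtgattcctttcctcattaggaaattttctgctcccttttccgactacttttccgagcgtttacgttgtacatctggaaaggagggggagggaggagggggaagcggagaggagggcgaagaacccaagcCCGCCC
Itgb6: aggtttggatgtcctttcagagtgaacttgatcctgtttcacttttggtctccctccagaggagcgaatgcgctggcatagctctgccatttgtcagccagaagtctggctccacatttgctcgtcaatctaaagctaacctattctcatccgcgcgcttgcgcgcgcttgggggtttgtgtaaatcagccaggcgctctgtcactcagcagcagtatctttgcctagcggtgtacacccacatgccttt
Lama5: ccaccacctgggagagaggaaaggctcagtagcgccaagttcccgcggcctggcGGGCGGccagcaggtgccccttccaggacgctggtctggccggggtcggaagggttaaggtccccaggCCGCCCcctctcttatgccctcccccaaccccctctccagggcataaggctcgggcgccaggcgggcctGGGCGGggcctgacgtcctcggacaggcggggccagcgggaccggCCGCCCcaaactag
The *Itga5* window had a GC content of 55.6% and held 2 GC boxes, and the *Lama5* window had a GC content of 72.4% and held 4. The *Itgb6* window, with a GC content of 52%, held none of the motifs. None of the 3 windows held the AP-1 or the TEAD letters. Of 32851 promoter windows of the same length, 32.7% held a GC box, 6.75% the AP-1 motif and 12.6% the TEAD motif. The absence of a match says only that these letters are not in the window.

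The beta chains were led by *Itgb1* (ENSMUSG00000025809, chr8:128685654-128733200), the shared partner of most matrix-binding alpha chains. It was measured at 558, 551, 1118, 567 and 556 CPM (libraries 1 to 5) against 520.5, 515, 560.4 and 569.9 CPM (libraries 6 to 9). Apart from library 3, at 2.01 times the median of the others, the level lay between 515 and 569.9 CPM. Per kilobase of exon, *Itgb1* had a median of 137 CPM, the highest of all members, and made up 75.9 to 80.2% of the summed beta chain level in the other 8 libraries and 76.8% in library 3. *Itgb5*, which pairs with alpha V and binds vitronectin, was second, with 12.6 to 18.6% of the beta chains in those 8 and 15.2% in library 3. It ranged from 77.8 to 121 CPM in the 8 libraries and reached 192 CPM in library 3.

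*Itgb6* (ENSMUSG00000026971, chr2:60598292-60722643), whose product pairs with alpha V and activates latent TGF-beta, varied more widely within each label. It was at 34.7, 58.4, 29.7, 58.0 and 48.1 CPM under the WT label and 51.6, 37.2, 57.2 and 32.1 CPM under the KO label, in library order. The lowest value was in library 3 and the highest in library 2, both labelled WT, and libraries 7 and 9 were low among those labelled KO. In the libraries under the lower *Vdac2* bound other than library 3, *Itgb6* was at 32.1 to 48.1 CPM. In the libraries above the upper *Vdac2* bound it was at 51.6 to 58.4 CPM. The ranges were separate, and the relation to the *Vdac2* level was not tested. *Itgb2* (ENSMUSG00000000290, chr10:77530252-77565708) encodes the beta chain of the leukocyte integrins. It was at 12.6, 10.2, 57.4, 9.17 and 15.8 CPM (libraries 1 to 5) against 6.66, 11.9, 6.74 and 10.97 CPM (libraries 6 to 9). Library 3 was 5.42 times the median of the others, and libraries 6 and 8 were the lowest. The summed level of 7 macrophage markers was also highest in library 3 and lowest in libraries 6 and 8, at 628, 448, 1555, 449 and 689 CPM under the WT label and 306, 504, 315 and 530.0 CPM under the KO label, in library order. In whole tissue, more cells of a type and more RNA per cell cannot be told apart.

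The remaining beta chains were low. *Itgb8*, which also activates latent TGF-beta with alpha V, ranged from 4.98 to 6.56 CPM in 8 libraries and was at 17.5 CPM in library 3. *Itgb3*, the beta chain of the platelet fibrinogen receptor, ranged from 2.12 to 5.05 CPM, with 8.79 CPM in library 3. The sum of the platelet and megakaryocyte markers was also highest in library 3, at 52.2 CPM against 13.3 to 28.6 CPM, but only *Pf4* of its 5 genes was highest there. *Itgb7*, of lymphocyte homing receptors, ranged from 0.723 to 2.12 CPM, with 6.18 CPM in library 3, while the summed lymphocyte markers were no higher there, at 2.13 CPM against 1.94 to 3.61 CPM. *Itgb4*, of epithelial hemidesmosomes, lay between 0.412 and 1.32 CPM throughout.

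**Figure D1:**
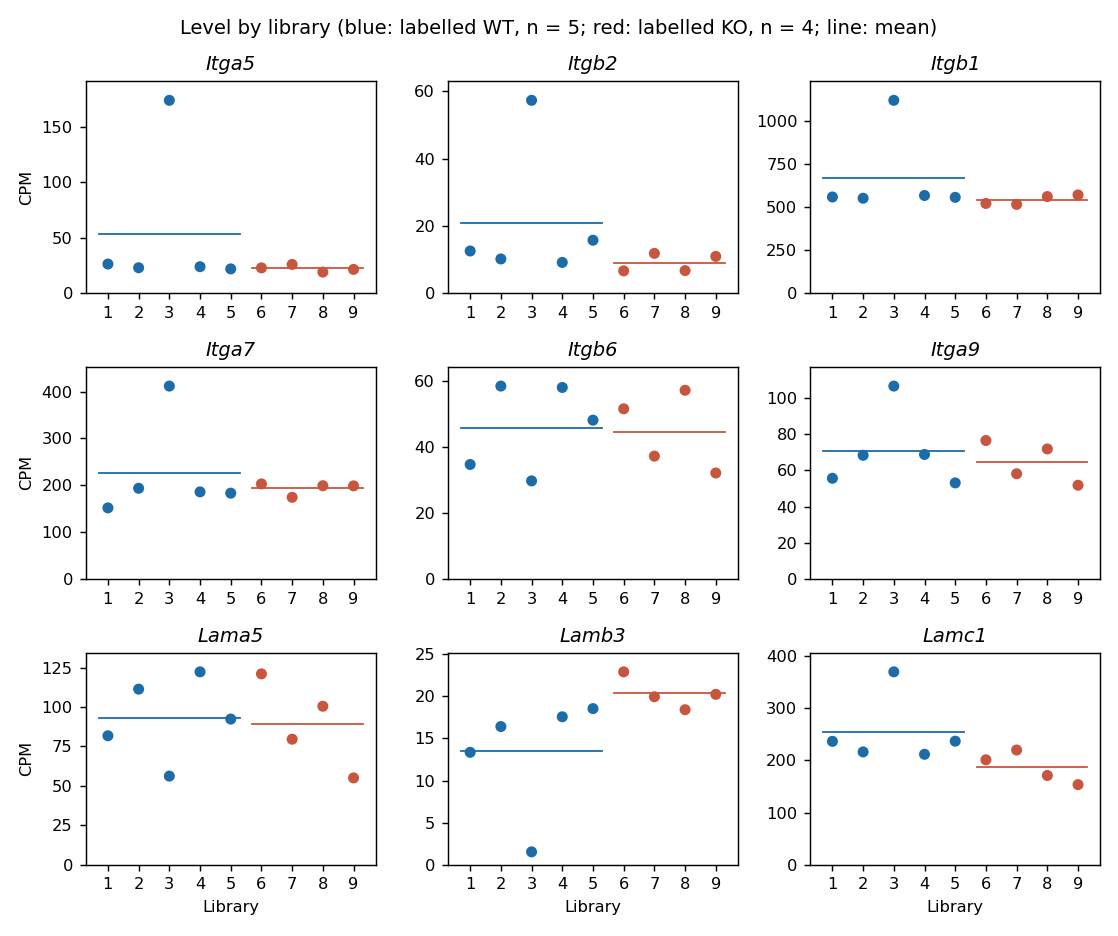
Level (CPM, linear axis) of 9 integrin and laminin genes in each of the 9 libraries under deposited labels WT (blue, n = 5) and KO (red, n = 4), with each label's mean as a line. Library 3 stands apart in *Itga5* (174 CPM) and *Itgb1* (1118 CPM), and *Itgb6* and *Lama5* are high and low under both labels.

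Among the laminin-binding alpha chains, *Itga7* (ENSMUSG00000025348, chr10:128933818-128958282), the main partner of *Itgb1* in striated muscle, was the most abundant, with 36.4 to 45.9% of the summed alpha chain level per kilobase in 8 libraries and 40.2% in library 3. It was at 152, 194, 412, 186 and 183 CPM (libraries 1 to 5) against 203, 174, 199 and 199 CPM (libraries 6 to 9). Library 3 thus held the highest level of this muscle integrin although its cardiomyocyte marker sum was the lowest. *Itga6*, a laminin receptor of endothelium and epithelium, was at 71.8, 94.4, 84.6, 92.6 and 79.6 CPM under the WT label and 87.4, 82.6, 87.4 and 57.4 CPM under the KO label, in library order. Library 9 was the lowest, and library 3 lay inside the range of the others. *Itga3*, which binds laminins with alpha 3 and alpha 5 chains, ranged from 7.26 to 9.35 CPM in 8 libraries, against 16.9 CPM in library 3.

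Of the fibronectin receptors, *Itga5* (ENSMUSG00000000555, chr15:103344286-103366763) differed most in library 3. It was at 26.4, 23.0, 174, 24.0 and 22.0 CPM (libraries 1 to 5) against 22.9, 26.02, 19.1 and 21.5 CPM (libraries 6 to 9). Library 3 was 7.58 times the median of the others, which spanned only 19.1 to 26.4 CPM. *Itga5* made up 27.9% of the alpha chain level per kilobase in library 3 and 6.46 to 10.4% elsewhere. *Itga4* (ENSMUSG00000027009, chr2:79255426-79333123), carried by leukocytes and binding VCAM-1 and fibronectin, was at 10.995, 8.26, 31.8, 8.52 and 12.6 CPM under the WT label and 6.71, 11.6, 8.06 and 10.6 CPM under the KO label, in library order. Library 3 was again the highest, as for *Itgb2* and the macrophage markers, whose part in these values was not tested. An exon of *Cerkl* on the opposite strand covers 8.04% of the *Itga4* exon bases, and the strand setting of the counting is not known. *Itga8*, which with beta 1 binds nephronectin, had its lowest value in library 3, at 4.94 CPM, and ranged from 7.38 to 14.0 CPM in the other 8.

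The collagen receptors were represented mainly by *Itga1*, at 125 to 156 CPM in all libraries, with library 3 at 128 CPM inside that range. *Itga11*, the collagen receptor of fibroblasts, was at 16.1 CPM in library 3 and at 2.42 to 4.19 CPM in the other 8, or 5.41 times their median. The sum of the activated fibroblast markers was also highest in library 3, at 3180 CPM against 269.6 to 869 CPM, but in library 9, which had 869 CPM, *Itga11* was at its lowest. *Itga2*, of platelets and epithelium, ranged from 1.12 to 3.78 CPM, and *Itga10*, of cartilage, from 0.304 to 0.722 CPM. The *Itga10* level is uncertain because 33.5% of its exon bases are shared with another gene model on the same strand. *Itga9*, which binds tenascin C, was at 55.7, 68.4, 107, 68.9 and 53.1 CPM (libraries 1 to 5) against 76.6, 58.2, 71.9 and 51.8 CPM (libraries 6 to 9). *Itga2b*, of the platelet fibrinogen receptor, ranged from 0.913 to 3.14 CPM, with library 2 the highest and library 3, at 2.89 CPM, next to it.

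**Figure D2:**
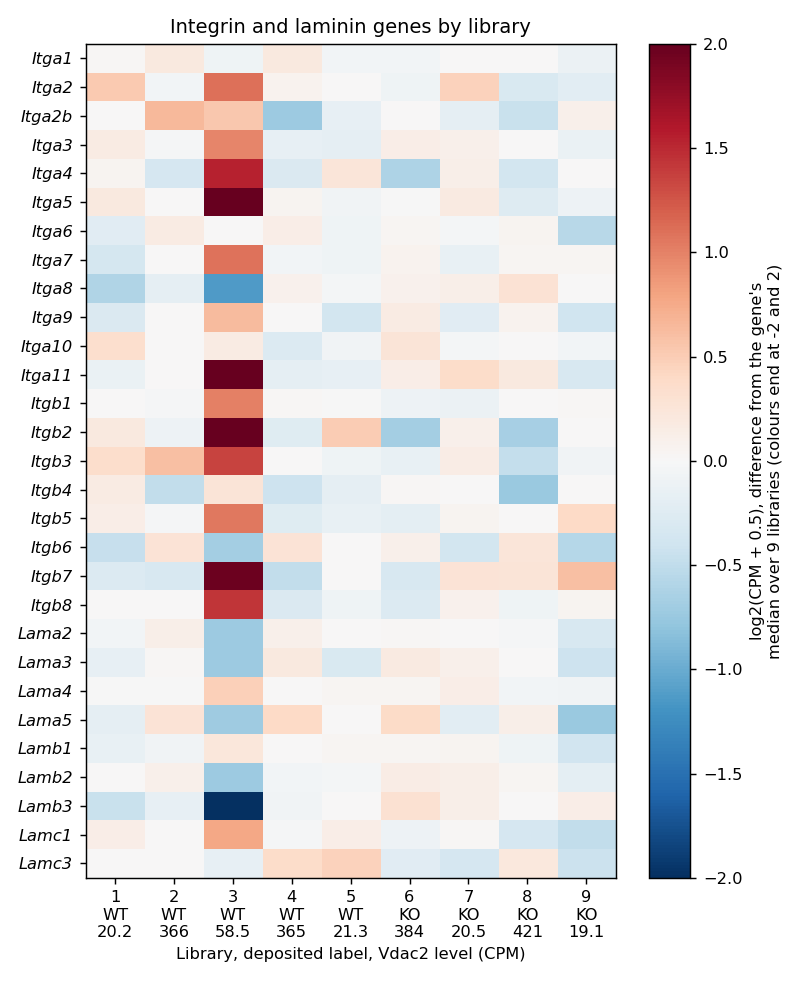
Relative level of the tested members (rows, by family) in each of the 9 libraries (columns), as the difference of log2(CPM + 0.5) from that gene's median over the libraries, with the label and *Vdac2* level under each column and colours ending at -2 and 2. The column of library 3 holds most of the strong colours, as in *Itga5* (174 CPM) and *Lamb3* (1.54 CPM).

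The laminin alpha chains were led by *Lama2* (ENSMUSG00000019899, chr10:26980036-27619758), the alpha chain of muscle basement membrane. It was at 322, 364, 203, 360.4 and 335 CPM (libraries 1 to 5) against 341, 336, 330.4 and 268 CPM (libraries 6 to 9). Libraries 3 and 9 had the lowest values under the respective labels. *Lama4*, of capillaries and of cardiomyocyte basement membrane, ranged from 155 to 180.4 CPM in 8 libraries and was at 228 CPM in library 3. *Lama4* per kilobase was therefore 1.52 times *Lama2* in library 3, against 0.603 to 0.785 times in the others. *Lama2* took 45.3 to 48.5% of the summed alpha chain level in those 8 and 33.9% in library 3, whereas *Lama4* took 28.9 to 37.4% and 51.8%.

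*Lama5* (ENSMUSG00000015647, chr2:180176373-180225859), of mature vessel basement membrane, was at 81.8, 111, 56.2, 122 and 92.3 CPM under the WT label and 121, 79.6, 100.5 and 55.1 CPM under the KO label, in library order. In the libraries under the lower *Vdac2* bound other than library 3, *Lama5* was at 55.1 to 92.3 CPM. In the libraries above the upper *Vdac2* bound it was at 100.5 to 122 CPM. The ranges were separate, and the relation to the *Vdac2* level was not tested. Libraries 3 and 9 had the lowest values. The endothelial marker sum was also lowest in these libraries, at 604 CPM in library 3 and 1038 CPM in library 9, and its part in the *Lama5* level was not tested. *Lama3*, of epithelial basement membrane, ranged from 2.99 to 6.12 CPM. *Lama1*, the embryonic alpha chain, was counted 7 times or fewer in each library and did not pass the expression filter.

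*Lamb2*, the predominant beta chain of muscle, was at 307, 331, 185, 295 and 299.7 CPM (libraries 1 to 5) against 339, 335, 317 and 269 CPM (libraries 6 to 9). *Lamb1*, widely expressed, was at 131, 138, 170.0, 146 and 150.5 CPM under the WT label and 150.0, 151, 137 and 112 CPM under the KO label, in library order. The ratio of *Lamb1* to *Lamb2* per kilobase was 0.564 in library 3 and 0.256 to 0.308 in the others. *Lamb3* (ENSMUSG00000026639, chr1:193207699-193343878), a chain of epithelial basement membrane, showed the widest departure in library 3 of any member. It was at 13.4, 16.4, 1.54, 17.6 and 18.5 CPM (libraries 1 to 5) against 22.9, 19.96, 18.4 and 20.2 CPM (libraries 6 to 9). Its level in library 3 was 0.0832 times the median of the others, and the ranges of the labels overlapped only in the 18.4 and 18.5 CPM of libraries 8 and 5.

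*Lamc1* (ENSMUSG00000026478, chr1:153218922-153332786), the gamma chain of nearly all laminins of the heart, made up 94.4 to 97.1% of the gamma chain level in 8 libraries and 93.9% in library 3. It was at 236, 216, 369, 211 and 236 CPM under the WT label and 201, 219.5, 171 and 153 CPM under the KO label, in library order. The labels overlapped, since library 7 exceeded libraries 2 and 4. *Lamc3* was low, at 0.162 to 0.732 CPM.

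**Figure D3:**
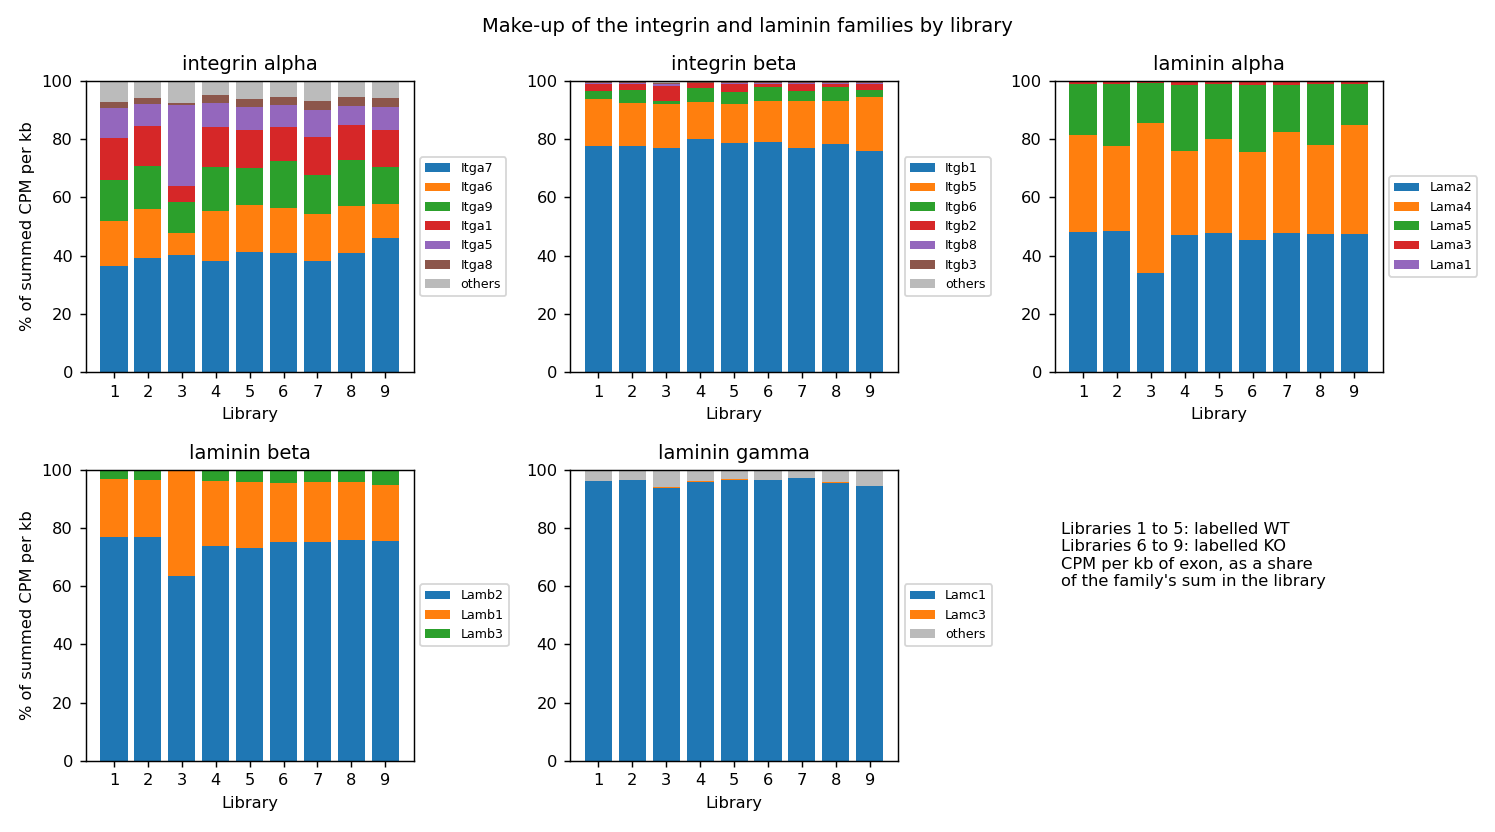
Share of each family's summed level per kilobase of exon (percent, stacked bars from 0 to 100) taken by the named chains in each of the 9 libraries, with the rest in grey. Library 3 differs by its larger *Itga5* share (27.9%), larger *Lama4* share (51.8%) and larger *Lamb1* share (35.9%), and *Itgb1* takes 75.9 to 80.2% of the beta integrins in every library.

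Library 3 had the highest of the 9 values for 18 of the 30 tested members and the lowest for 6, and over all 16322 tested genes it was highest for 37.7% and lowest for 37.4%. The median member stood 0.59 above its own median in library 3 on the log2 scale, against a median of 0 over all genes. In library 9, 9 members were at their lowest and none at their highest, where 14% of all genes were lowest and 12.7% highest. In the 7 other libraries the median member lay between -0.03 and 0.05 of its own median.

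The comparison of the labels asked which of these genes differed between left ventricle labelled KO and WT. No member was called by edgeR's quasi-likelihood test at a Benjamini-Hochberg adjusted p under 0.05, with 0 of 30 tested members and 9 of 16322 genes (0.0551%). At an unadjusted p under 0.05 the count was 1 member, *Lamc1*, against 6.11% of all genes. DESeq2 called none of the 28 members to which it gave an adjusted p, and 0.429% of all genes. It gave none to *Itga5* and *Itga11*. At an unadjusted p under 0.05 it had 3 members and 8.15% of all genes. A limma voom fit that gave each library a quality weight also called none, against 0.472% of all genes, and had 4 members and 13.7% of all genes at an unadjusted p under 0.05. By either tool the members' share was near that of all genes. In no member were the CPM ranges of the labels separate, where they were separate in 4.36% of all genes. Since *Vdac2* was high and low under both labels, these counts compare the labels as deposited and not the presence and absence of the gene.

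The median log2 fold change (KO minus WT) of the 30 members was -0.18, with 25 below 0, beside -0.02 over all genes. Without library 3 it was -0.05, with 16 below 0, beside 0.00 over all genes. In that fit edgeR called none of the 30 members and 0.382% of all genes, and 4 members (*Itgb7*, *Lamb3*, *Lamc1* and *Lamc3*) and 11.8% of all genes had an unadjusted p under 0.05. *Lamc1* had a mean of 254 ± 65.4 CPM under WT (SD, n = 5) and 186 ± 29.7 CPM under KO (SD, n = 4), a log2 fold change of -0.45 ± 0.19 (SE, unadjusted p = 0.045, edgeR adjusted p = 0.68). Without library 3 the value was -0.28 ± 0.11 (edgeR adjusted p = 0.35). The most negative estimate was that of *Itga5*, at -1.27 ± 0.68 (edgeR adjusted p = 0.68), and it was -0.10 ± 0.099 without library 3. *Itgb2* had -1.22 ± 0.57 (edgeR adjusted p = 0.68) and -0.40 ± 0.23 without library 3. Both estimates thus rested mostly on the single library.

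Among the muscle chains, *Itgb1* had a log2 fold change of -0.31 ± 0.24 and *Itga7* of -0.22 ± 0.28, which became -0.05 ± 0.067 and 0.11 ± 0.088 without library 3. *Lama2* had 0.01 ± 0.18 and *Lamb2* 0.15 ± 0.17, and -0.12 and 0.02 without it. *Lamb3*, the most positive member, had means of 13.5 ± 6.96 CPM (SD, n = 5) and 20.4 ± 1.87 CPM (SD, n = 4) and a log2 fold change of 0.60 ± 0.52 (edgeR adjusted p = 0.71). Without library 3 its value was 0.30 ± 0.11 (edgeR adjusted p = 0.31). *Itgb7* turned from -0.38 ± 0.67 to 0.70 ± 0.27 (edgeR adjusted p = 0.35) when library 3 was left out. *Lamc3*, at 7 to 24 counts per library, had -0.77 ± 0.41 and, without library 3, -0.93 ± 0.39 (edgeR adjusted p = 0.38). Within each label, *Itgb6* and *Lama5* were lower in every library of low *Vdac2* level than in those of high level. Between the labels they had -0.04 ± 0.25 and -0.06 ± 0.27 (edgeR adjusted p of 0.95 and 0.94). Without library 3 they had -0.17 ± 0.22 and -0.20 ± 0.23 (edgeR adjusted p of 0.80 and 0.77). A value that misses the threshold does not show that the labels are alike.

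**Figure D4:**
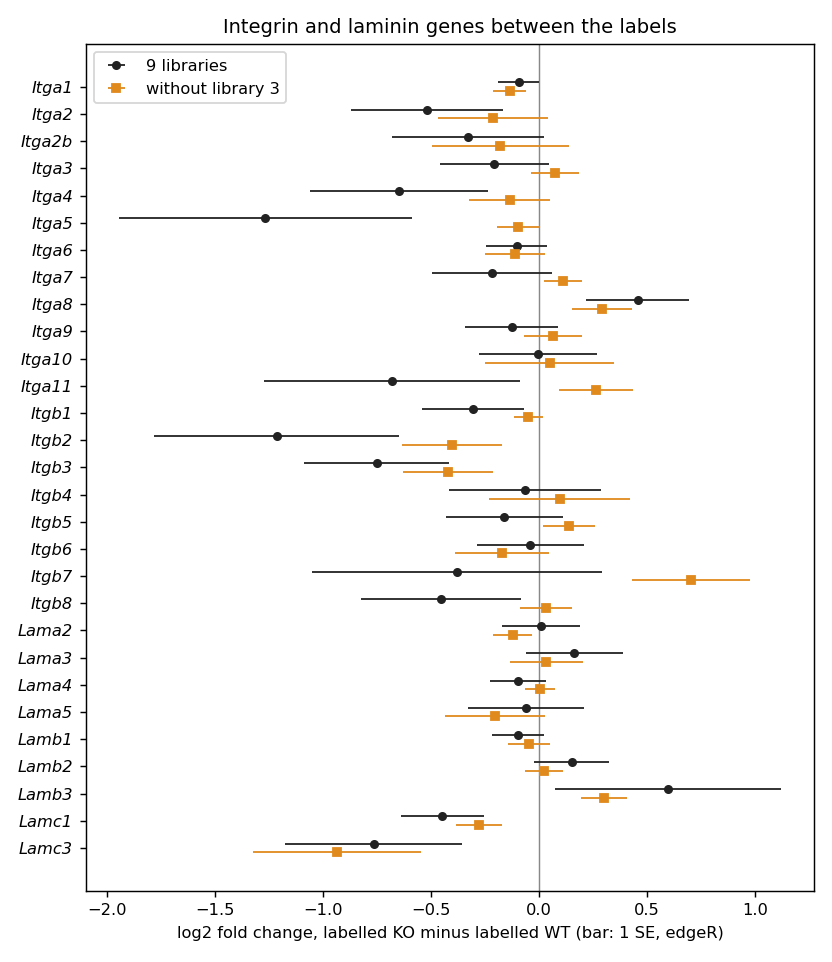
Log2 fold change of the tested members between the labels (KO minus WT, edgeR, bars 1 SE) with all 9 libraries (black circles) and without library 3 (orange squares). Most intervals narrow and move towards 0 without library 3, as for *Itga5* (from -1.27 to -0.10), while *Itgb7* crosses 0 (from -0.38 to 0.70).

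The integrin alpha genes outside the symbol rule, alpha V and those of leukocytes, gave 5 tested genes of 6, none of them called, with a median log2 fold change of -0.71 and of -0.16 without library 3. *Itgav*, the alpha chain shared by the *Itgb3*, *Itgb5*, *Itgb6* and *Itgb8* products, was at 71.6, 60.7, 212, 56.3 and 64.1 CPM (libraries 1 to 5) against 54.9, 67.1, 54.5 and 50.9 CPM (libraries 6 to 9). Its high value in library 3 was shared by *Itgb3*, *Itgb5* and *Itgb8* but not by *Itgb6*, which was lowest there. *Itgam* and *Itgax*, the alpha chains of macrophages and dendritic cells that pair with the *Itgb2* product, were at 19.5 and 13.5 CPM in library 3, against 1.65 to 4.82 CPM and 0.875 to 2.78 CPM in the others. All 5 tested genes of this list were highest in library 3. For this and the lists below, the share of all genes called was 0.0551%, so few calls could occur in lists of this size. Library 3 was highest for 37.7% and lowest for 37.4% of all genes.

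Of 21 basement membrane partners of laminin, none was called, and the median log2 fold change was -0.16, or -0.06 without library 3, which held the highest value of 13 and the lowest of 6. *Nid1*, the nidogen that links laminin to collagen IV, was the single gene of the 21 with an unadjusted p under 0.05. Over all genes that share was 6.11%, and *Nid1* is named here after its values were seen. It was at 147, 138, 185, 148 and 161 CPM under the WT label and 118, 135, 107 and 87.6 CPM under the KO label, in library order. The labels were separate by the narrow gap between libraries 2 and 7, as they were in 4.36% of all genes. Its log2 fold change was -0.48 ± 0.14 (SE, edgeR adjusted p = 0.68) and -0.41 without library 3. The most abundant partners stood out in library 3, with *Col4a1*, a collagen IV chain, at 772 CPM against 285 to 366 CPM. *Sparc*, a collagen-binding matrix protein, was at 1067 CPM against 147 to 238 CPM, and *Hspg2*, the proteoglycan perlecan, at 496 CPM against 108 to 236 CPM.

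Of 34 tested genes of the adhesion complex on the cytoplasmic side, none was called, and the median log2 fold change was -0.32, or -0.05 without library 3, which held the highest value of 26 and the lowest of 4. *Flnc*, the muscle filamin, was at 2309 CPM there against 332 to 521 CPM, and *Flna*, the widely expressed filamin, at 1067 CPM against 206 to 284 CPM. *Tns1*, a tensin that links integrins to actin, did not share this, at 313 CPM against 273 to 496 CPM. Of 22 tested integrin ligands other than laminins and collagens, none was called, the median was -0.91, or 0.08 without library 3, and 19 were highest and 3 lowest in that library. *Postn*, the ligand periostin of activated fibroblasts, was at 2508 CPM there against 59.4 to 316 CPM, *Fbn1*, the microfibril protein, at 1589.8 CPM against 147 to 306 CPM, and *Ccn2*, a matricellular growth factor, at 1142 CPM against 36.5 to 232 CPM. *Thbs1* and *Thbs2*, thrombospondins, were the 2 genes of these 22 with an unadjusted p under 0.05, beside 6.11% of all genes. Their log2 fold changes were -2.65 ± 1.12 and -0.47 ± 0.13 (SE, edgeR adjusted p of 0.68 for both), and -0.42 and -0.38 without library 3. The summed fibroblast markers were 7125 CPM in library 3 against 1227 to 2027 CPM, with 5 of the 7 markers highest and 1 lowest there, and their part in the values of these matrix genes was not tested.

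The last lists were the laminin receptors other than integrins and the genes that build the laminin-binding glycan of dystroglycan. Of 14 receptor and associated genes none was called, and the median log2 fold change was 0.03, or 0.06 without library 3, which held the highest value of 7 and the lowest of 5. *Dag1*, which encodes dystroglycan, was at 184 CPM in library 3 and at 176 to 277 CPM in the others, the lowest being library 9. *Cd151*, a tetraspanin that binds laminin-binding integrins, was at 267 CPM against 213 to 333 CPM. Of 12 tested genes of O-mannosylation and assembly none was called, with a median of 0.04, or 0.09 without library 3, where 2 were highest and 5 lowest in that library. *Pomgnt1*, an enzyme of the pathway, ranged from 43.4 to 57.9 CPM over all 9 libraries.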

How the data were processed

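Total RNA of mouse left ventricle was extracted with a miRNeasy kit and made into stranded libraries after ribosomal RNA removal (TruSeq, Ribo-Zero Gold), sequenced as single-end 50-base reads. The authors deposited raw read counts per gene for 9 libraries. The submitters' processing notes name STAR 2.7.2c, featureCounts 1.6.3, DESeq2 and GRCm38. Which annotation release and strand setting were used, and how multi-mapping reads were treated, is not given in the sources used here, so counts of overlapping genes may be split or dropped. The deposited gene IDs were matched to symbols, exons and positions with GENCODE annotation of GRCm38 (52403 of 52636 genes had a symbol).

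Groups came from the labels alone. Genes were filtered with filterByExpr and tested between the labels with the quasi-likelihood test of edgeR 4.0.16 in R 4.3.3 (TMM normalization, robust fit, Benjamini-Hochberg adjustment over all 16322 tested genes). Calls used an adjusted p under 0.05. CPM values are counts scaled by the TMM effective library size, and log2 values used a pseudocount of 0.5. Per-kilobase levels divide by the union of a gene's exons. The alternatives were DESeq2 1.42.0, RLE normalization, no filter, at least 10 counts in every library, limma 3.58.1 voom with library quality weights, a pseudocount of 0.1, and leaving out each library. The fits were tested on simulated counts with the same relative spread for every gene, no outlying library and true labels. Such counts lack the departure of library 3 and the disagreement of *Vdac2* with the labels. That test therefore does not show how the fits perform on these data. The 31 members and the gene lists were chosen with earlier results of these data known. The genes named were all members, *Vdac2*, from each list any called gene and, of the 3 with the highest mean CPM, those reported here, and the leading cell type markers. *Nid1*, *Thbs1* and *Thbs2* were chosen after their values were seen. Promoter sequences were from RefSeq, in GRCm38.p6, and 20 of the 31 members matched a window. Protein sequences were not used here. One member and some genes of the lists are not reported here by name, though counts and medians over the members and lists include them.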

Additional observations from a re-analysis of the deposited data

Results flagged for a closer look

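Of the 62 combinations of a member and a label, 20 had a library that stood apart. Its distance from its nearest neighbour, as a share of the group's range in CPM, exceeded Dixon's critical value for the group's size. About 1 in 20 combinations would do so by chance if the values were normally distributed. Of the 20, 19 are given here, and 14 of them were library 3 of those labelled WT. It was high in 12, with *Itgb1* at 1118 CPM, *Itga7* at 412 CPM, *Lamc1* at 369 CPM, *Lama4* at 228 CPM, *Itgb5* at 192 CPM and *Itga5* at 174 CPM. The same held for *Itgb2* at 57.4 CPM, *Itga4* at 31.8 CPM, *Itgb8* at 17.5 CPM, *Itga3* at 16.9 CPM, *Itga11* at 16.1 CPM and *Itgb7* at 6.18 CPM. It was low in the other 2, *Lama2* at 203 CPM and *Lamb2* at 185 CPM. The values share a library and are therefore not independent of each other.

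Among the libraries labelled KO, library 9 was low in *Itga6* at 57.4 CPM and in *Lama2* at 268 CPM, and library 7 was low in *Itga7* at 174 CPM. At low levels, library 6 was high in *Itga10* at 0.663 CPM and library 8 was low in *Itgb4* at 0.412 CPM.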

How the results depend on the processing

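None of the members given an adjusted p was called under any setting run (DESeq2 gave none to *Itga5* and *Itga11*), and their lowest edgeR, DESeq2 or limma adjusted p over all settings was 0.28. The number of genes called overall was 70 with DESeq2, 77 with voom quality weights, 0 with at least 10 counts in every library (875 at an unadjusted p under 0.05, of 14528 genes tested), and 5 to 62 when one library was left out, with 62 without library 3 and 5 without library 1, 2 or 4. No paired analysis was possible because the labelled groups share no replicate number. The *Vdac2* difference in mean log2 level between the labels ranged from -0.59 to 0.89 when one library was left out, being -0.34 without library 1, -0.32 without library 5, -0.54 without library 6 and -0.59 without library 8.

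The log2 fold change turned in sign under at least one setting in 14 of 30 members, 11 of them without library 3, and the cause was not tested. Leaving out one library gave ranges of -0.16 to 0.15 for *Itga10*, -0.86 to 0.26 for *Itga11*, -0.30 to 0.073 for *Itga3*, -0.16 to 0.022 for *Itga6*, -0.33 to 0.11 for *Itga7*, -0.22 to 0.064 for *Itga9* and -0.19 to 0.17 for *Itgb4*. The ranges were -0.28 to 0.14 for *Itgb5*, -0.18 to 0.088 for *Itgb6*, -0.59 to 0.70 for *Itgb7*, -0.59 to 0.032 for *Itgb8*, -0.12 to 0.085 for *Lama2*, -0.14 to 0.0053 for *Lama4* and -0.24 to 0.11 for *Lama5*. With voom quality weights the sign also turned, to 0.18 for *Itga10*, 0.30 for *Itga11*, 0.12 for *Itga3*, 0.11 for *Itga7*, 0.13 for *Itga9*, 0.079 for *Itgb5*, 0.52 for *Itgb7*, -0.077 for *Lama2* and 0.0079 for *Lama4*. Without the filter *Itga10* was at 0.020. The 5 and 4 libraries per label, and the lane and sex that follow the label, limit what the comparison can show, and *Lama1* was at 7 counts or fewer in each library.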

Other observations

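The atrial marker list, led by *Nppa*, the natriuretic peptide gene that stressed ventricles also express, ranged from 74.9 to 3351 CPM in summed level. *Nppa* was at 951, 73.8, 3347, 80.4 and 157 CPM (libraries 1 to 5) against 104, 401, 72.8 and 1523 CPM (libraries 6 to 9). Libraries 3 and 9 had the highest values, 1 under each label. In the libraries under the lower *Vdac2* bound other than library 3, *Nppa* was at 157 to 1523 CPM. In the libraries above the upper *Vdac2* bound it was at 72.8 to 104 CPM, so the ranges were separate. The paper reports increased *Nppa* expression in the KO mice. The relation of *Nppa* to the *Vdac2* level was not tested. *Sln*, a defining atrial marker, had 3 counts or fewer in every library.

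The mural marker sum was 606 CPM in library 3 and 1441 to 1948 CPM in the others, with 4 of its 6 genes lowest there, while the other 2 were highest there. Library 9, in which 13 of the 30 members had their lowest value among the 8 libraries other than library 3 (22.8% of all genes), had the lowest mural and endothelial sums of those 8. The neutrophil sum ranged from 2.18 to 30.2 CPM and was highest in library 5, with *Ly6g* at 3 counts or fewer everywhere. The erythroid sum ranged from 590.3 to 2056 CPM, the epicardial and mesothelial sum from 5.75 to 28.8 CPM, the Schwann cell sum from 9.82 to 11.47 CPM, and the adipocyte sum reached at most 0.844 CPM. The part of these cell types in the integrin and laminin levels was not tested.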
